A study of Homo sapiens with 12 samples.

Results

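The desmosome genes described here are 10 genes that encode parts of the desmosome. They are the desmosomal cadherins DSG2, DSG3, DSC2 and DSC3, the plaque proteins DSP, JUP, PKP1, PKP2 and PKP3, and the membrane protein PERP. They were chosen as every probe set on the array whose only gene symbol in the platform annotation was one of these 10. This gave 15 probe sets of 22215 that are not controls, and 10 genes of 11963.

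A desmosome is a spot-like junction that fastens neighbouring epithelial cells to each other and gives a sheet of cells its resistance to pulling. Desmogleins and desmocollins meet the cadherins of the next cell outside the membrane, plakoglobin (JUP) and the plakophilins bind their tails inside it, and desmoplakin (DSP) ties this plaque to keratin filaments. The junction is abundant in stratified squamous epithelium, the tissue from which most head and neck cancers arise.

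The study profiled total RNA of 3 head and neck cancer cell lines on 12 Affymetrix arrays, with 2 arrays in each of 6 groups. The groups were a Detroit invasion subline and Detroit parent cells, a Fadu invasion subline and Fadu parent cells, and an OECM1 invasion subline and OECM1 parent cells. Each subline had been obtained by taking a line through Matrigel, a basement membrane extract, and collecting the strongly invasive cells. Fadu came from a squamous carcinoma of the hypopharynx and OECM1 from one of the oral cavity. The labels do not name which of the Detroit lines was grown. No genetic change or drug was named for any group, the parents were the cells before selection, and how many separate selections each subline came from is not stated. The labels do not say that duplicates came from separate cultures, so p-values measured only the spread between these arrays, which may be technical.

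All values are log2 RMA values, on which a difference of 1 is a 2-fold change. A limit of 4.52, the 40th percentile of all values, was used to mark dim probe sets, and a probe set was tested if at least 2 arrays lay above it. Of the desmosome probe sets 13 passed, covering 9 genes, and both DSC2 probe sets did not. A probe set was called where its adjusted p in the limma fit was under 0.05 among the 15123 tested.

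Array medians lay between 4.92 and 5.06, and all 5 epithelial markers (EPCAM, CDH1, KRT8, KRT18, KRT19) were above the limit on every array. The endothelial markers PECAM1, CDH5 and VWF, the leukocyte markers PTPRC and LYZ, the fibroblast markers COL3A1 and LUM and the heart muscle marker MYH6 were below it on every array. Other markers of those cell types were above it on all 12 arrays, namely COL1A1 (5.33 to 6.38), CD3D (5.09 to 6.12) and ACTC1 (4.72 to 5.55), TEK was above it on nearly all, and CD14, DCN, PDGFRB and MYH7 lay on both sides of it. COL1A2 reached 8.50 in replicate 1 of the Detroit parent and lay between 4.24 and 5.35 elsewhere. The arrays labelled Detroit invasion subline went against their label. Across the tested probe sets, which are not independent replicates, the Pearson correlation of their mean was 0.965 with Fadu parent cells and 0.893 with Detroit parent cells. Over the 13 desmosome probe sets, these arrays lay a root mean square log2 distance of 0.55 from Fadu parent, 0.62 from Fadu invasion, 0.64 from OECM1 invasion, 0.73 from OECM1 parent and 1.16 from Detroit parent cells. The Detroit parent was far from every group on these probe sets (0.90 to 1.37), so this distance sets the Detroit parent apart and does not single out Fadu. Their 2 arrays also differed most from each other, by a root mean square of 1.21 over the desmosome probe sets, against 0.46 to 0.79 within the other 5 groups. They are therefore called Detroit-labelled, and a comparison with the Fadu parent stands beside the one with the Detroit parent.

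The main pattern in the desmosome genes was a low level of 3 of them in Detroit parent cells against OECM1 parent cells. These were DSG3, DSC3 (206033_s_at only) and DSP, and none of them was called against Fadu parent cells. DSG3 was also called higher in the Detroit-labelled invasion subline than in the Detroit parent. No desmosome probe set was called between the Fadu or OECM1 invasion subline and its own parent. JUP, DSG2, PKP1, PKP2, PKP3 and PERP were called in none of the comparisons.

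**Figure D1:**
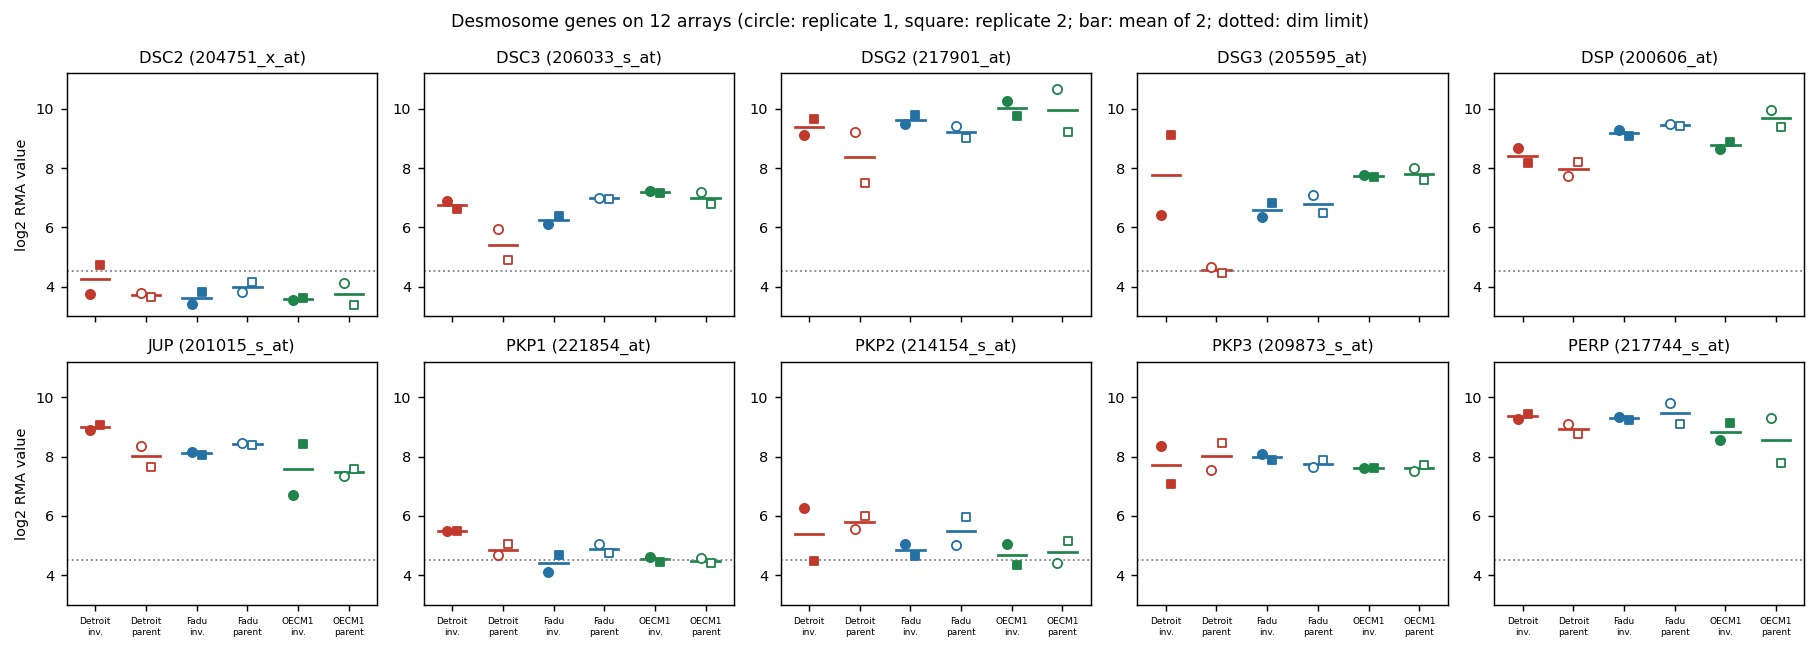
Log2 RMA value (vertical axis) of the brightest probe set of each desmosome gene on all 12 arrays, by group. Filled symbols are invasion sublines, open symbols parents, circles replicate 1, squares replicate 2, bars the mean of 2 arrays, and the dotted line the dim limit of 4.52; DSG3 was 4.66 and 4.47 in Detroit parent cells and at least 6.35 on the other 10 arrays.

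The sequences upstream of these 3 genes are shown because the genes stood low together in Detroit parent cells. They are the 250 bases before the annotated start of each gene, from RefSeq on GRCh38.p14, written 5′ to 3′ along the gene. Capitals mark matches to 6 short motifs searched on both strands. These were the SP1 box (GGGCGG), the E2 box (CAGGTG), the AP-1 site (TGAGTCA), the TATA box (TATAAA), the CCAAT box (CCAAT) and a Grainyhead-like site (AACCGGTT).
DSG3, chr18:31447491-31447740, plus strand: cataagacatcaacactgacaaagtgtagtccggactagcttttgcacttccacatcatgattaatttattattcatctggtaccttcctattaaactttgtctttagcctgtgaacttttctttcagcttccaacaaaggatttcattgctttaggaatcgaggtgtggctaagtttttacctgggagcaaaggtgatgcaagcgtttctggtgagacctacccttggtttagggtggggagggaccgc
DSC3, chr18:31042743-31042992, minus strand: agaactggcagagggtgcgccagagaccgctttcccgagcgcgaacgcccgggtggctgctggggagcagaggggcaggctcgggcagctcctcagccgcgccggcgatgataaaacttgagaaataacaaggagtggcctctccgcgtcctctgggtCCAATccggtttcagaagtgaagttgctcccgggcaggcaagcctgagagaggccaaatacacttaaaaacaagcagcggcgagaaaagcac
DSP, chr6:7541421-7541670, plus strand: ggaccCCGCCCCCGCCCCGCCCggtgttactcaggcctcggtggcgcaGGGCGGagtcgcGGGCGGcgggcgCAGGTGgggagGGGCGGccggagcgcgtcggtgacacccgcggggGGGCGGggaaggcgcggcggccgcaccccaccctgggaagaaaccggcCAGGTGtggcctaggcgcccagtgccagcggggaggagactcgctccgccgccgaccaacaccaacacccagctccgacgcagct

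The 3 windows differed in composition and held different motifs. The DSP window was 78% G and C, with 7 SP1 boxes and 2 E2 boxes, and the first 3 SP1 boxes read on the opposite strand, the second and the third of them sharing 1 base. The DSC3 window was 60.4% G and C and had a single match, a CCAAT box. The DSG3 window was 42.8% G and C, against a median of 58% over 35116 windows, and none of the 6 motifs was found in it. The SP1 box was present in 42.6% of all windows, the E2 box in 17.5%, the CCAAT box in 32%, the TATA box in 10.7%, the AP-1 site in 4.2% and the Grainyhead-like site in 0.117%. A match is only a run of letters and was not tested as a binding site. DSC3, DSC2, DSG3 and DSG2 lie in a run of neighbouring desmosomal cadherin genes on chromosome 18 together with DSC1, DSG1 and DSG4, while DSP lies on chromosome 6.

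DSG3 encodes desmoglein 3, the cadherin of the basal and lower layers of stratified epithelium and the autoantigen of pemphigus vulgaris. Its probe set (205595_at) read 6.43 and 9.13 in the Detroit-labelled invasion subline, against 4.66 and 4.47 in Detroit parent cells. In the other lines it read 6.35 and 6.82 in the Fadu invasion subline, against 7.08 and 6.48 in Fadu parent cells. OECM1 invasion subline arrays were at 7.75 and 7.70 and OECM1 parent arrays at 8.01 and 7.60. Detroit parent arrays were thus the lowest of the 12 and lay at the dim limit, and the Detroit-labelled duplicates were far apart. From high to low, the group means ran OECM1 parent, Detroit-labelled invasion, OECM1 invasion, Fadu parent, Fadu invasion and Detroit parent. In that order, the arrays of neighbouring groups did not overlap only between OECM1 invasion and Fadu parent and between Fadu invasion and Detroit parent.

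DSC3 encodes desmocollin 3, a cadherin of basal and lower suprabasal squamous cells. Its brighter probe set (206033_s_at) read 6.90 and 6.62 in the Detroit-labelled invasion subline and 5.94 and 4.88 in Detroit parent cells. It read 6.10 and 6.37 in the Fadu invasion subline, against 7.0 and 6.97 in Fadu parent cells. OECM1 gave 7.21 and 7.15 in the subline, against 7.19 and 6.79 in its parent. Detroit parent cells were again the lowest group, and the Fadu subline lay below both Fadu parent arrays. The other DSC3 probe set (206032_at) read 5.17 and 5.25 in Detroit parent cells and at least 6.08 on the other 10 arrays, and the 2 probe sets correlated at r = 0.86 over the 12 arrays.

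DSG2 and DSC2 encode the desmoglein and desmocollin that are also found in simple epithelia and heart. DSG2 (217901_at) read 9.13 and 9.67 in the Detroit-labelled invasion subline, 9.23 and 7.50 in Detroit parent cells, 9.47 and 9.80 in invasive Fadu cells, 9.42 and 9.01 in Fadu parent cells, 10.25 and 9.77 in invasive OECM1 cells, and 10.68 and 9.22 in OECM1 parent cells. Every pair of neighbours in the order of its group means overlapped, and the duplicates of both the Detroit parent and the OECM1 parent lay more than 1 apart. For DSC2, the probe set 204751_x_at passed the dim limit on 1 array, at 4.73 in replicate 2 of the Detroit-labelled invasion subline, and ranged down to 3.38. The other DSC2 probe set (204750_s_at) stayed between 3.06 and 3.60, so no DSC2 difference was measured.

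DSP encodes desmoplakin, the plaque protein that anchors keratin filaments. Its probe set (200606_at) read 8.67 and 8.16 in the Detroit-labelled invasion subline, against 7.73 and 8.21 in Detroit parent cells, and these arrays overlapped. It read 9.27 and 9.08 in the Fadu invasion subline, against 9.49 and 9.41 in Fadu parent cells. It read 8.65 and 8.88 in the OECM1 invasion subline, against 9.97 and 9.39 in OECM1 parent cells. The Fadu and OECM1 subline arrays each lay below both arrays of their parent, and both Detroit parent arrays were among the 3 lowest of the 12.

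JUP encodes plakoglobin, an armadillo protein shared by desmosomes and adherens junctions. It (201015_s_at) read 8.90 and 9.08 in the Detroit-labelled invasion subline, 8.37 and 7.65 in Detroit parent cells, 8.17 and 8.06 in the subline of Fadu, and 8.47 and 8.38 in Fadu parent cells. In OECM1 it read 6.71 and 8.43 in the invasion subline and 7.36 and 7.58 in parent cells. JUP was highest in the Detroit-labelled invasion subline, whose arrays overlapped those of no other group, and the OECM1 subline duplicates lay on both sides of the OECM1 parent arrays.

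The plakophilins are armadillo proteins that cluster desmoplakin at the plaque, PKP1 in suprabasal squamous cells, PKP2 in many epithelia and heart, and PKP3 in nearly all epithelia. PKP1 lay near the dim limit on most arrays. Its probe set 221854_at read 5.50 and 5.48 in the Detroit-labelled invasion subline and between 4.12 and 5.05 elsewhere. Its probe set 205724_at lay between 3.78 and 5.06 on all arrays. PKP2 (214154_s_at) read 6.27 and 4.48 in the Detroit-labelled invasion subline, 5.56 and 6.0 in Detroit parent cells, and 4.33 to 5.98 in the other groups. Its other probe set (207717_s_at) read 4.87 and 5.43 in the Fadu invasion subline, against 5.70 and 6.15 in Fadu parent cells, and lay between 4.58 and 5.46 in the other groups. PKP3 (209873_s_at) ranged from 7.09 to 8.48, and the lowest value belonged to replicate 2 of the Detroit-labelled invasion subline. The range of its group means, 0.40, was smaller than the difference between duplicates in that group and in Detroit parent cells. The other PKP3 probe set (209872_s_at) ranged from 5.16 to 7.62, both read in the Detroit-labelled invasion subline. The range of its group means was 1.24, from 6.86 in Detroit parent cells to 5.62 in OECM1 parent cells, whose arrays did not overlap.

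PERP encodes a tetraspan membrane protein of desmosomes that p63 and p53 switch on. It (217744_s_at) read 9.28 and 9.45 in the Detroit-labelled invasion subline, against 9.09 and 8.77 in Detroit parent cells. In Fadu it read 9.35 and 9.24 in the subline, against 9.83 and 9.12 in the parent. In OECM1 it read 8.56 and 9.13 in the subline, against 9.30 and 7.80 in the parent. The OECM1 parent duplicates spanned the OECM1 subline arrays.

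DSG3 was higher in the Detroit-labelled invasion subline than in Detroit parent cells. Its mean was 7.78 ± 1.91 in the subline and 4.56 ± 0.134 in the parent (SD, n = 2 each), a 9.31-fold difference (log2 fold change 3.22, SE 0.666, 95% interval 1.75 to 4.69, limma adjusted p = 0.0268). It was the only 1 of the 13 desmosome probe sets called in this comparison, in which 3.02% of all probe sets tested were called, 197 higher and 260 lower. Both DSC3 probe sets had larger means in the subline without passing, by 1.35 (adjusted p = 0.0774) and 1.37 (adjusted p = 0.0821) on the log2 scale. JUP differed by 0.98 (adjusted p = 0.385), DSG2 by 1.03 (adjusted p = 0.453) and PKP1 (221854_at) by 0.63 (adjusted p = 0.253). The other PKP1 probe set (205724_at) differed by 0.05. The subline arrays lay wholly above the parent arrays for 6 desmosome probe sets and wholly below for 1, together 53.8% of the 13, against 38.6% of all probe sets. The median log2 fold change was 0.45 over the 13 and -0.01 over all. In bulk RNA, fewer cells with a transcript and less of it per cell cannot be told apart.

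The Detroit-labelled arrays differed from Detroit parent arrays in more than the desmosome. The summed log2 value of the 3 squamous markers (KRT5, KRT14, SFN) was 28.99 and 33.88 in the subline, against 23.47 and 24.84 in the parent. KRT14 carried that difference (6.47), while KRT5 and SFN differed by 0.51 and 0.30 (adjusted p = 0.843 and 0.863). The summed value of the 6 fibroblast markers was 25.20 and 26.66 in the subline, against 27.07 and 30.19 in the parent. Most of that difference lay in COL1A2, which read 4.67 and 4.73 in the subline and 8.50 and 5.35 in the parent. The part of these differences in the DSG3 result was not tested. The DSG3 call was lost when only these 4 arrays were fitted (adjusted p = 0.27), with the replicate number as a block (adjusted p = 0.0616) and without replicate 1 (adjusted p = 0.131) or replicate 2 (adjusted p = 0.118) of the Detroit parent. The DSG3 log2 fold change was 4.57 without replicate 1 of the subline and 1.87 without its replicate 2. Without replicate 1 of the Detroit parent, DSC3 (206033_s_at) was called in place of DSG3, at 1.88 (adjusted p = 0.0431). Without replicate 1 or replicate 2 of the OECM1 parent, DSC3 (206032_at) was called beside DSG3, with adjusted p of 0.0169 and 0.0189.

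**Figure D2:**
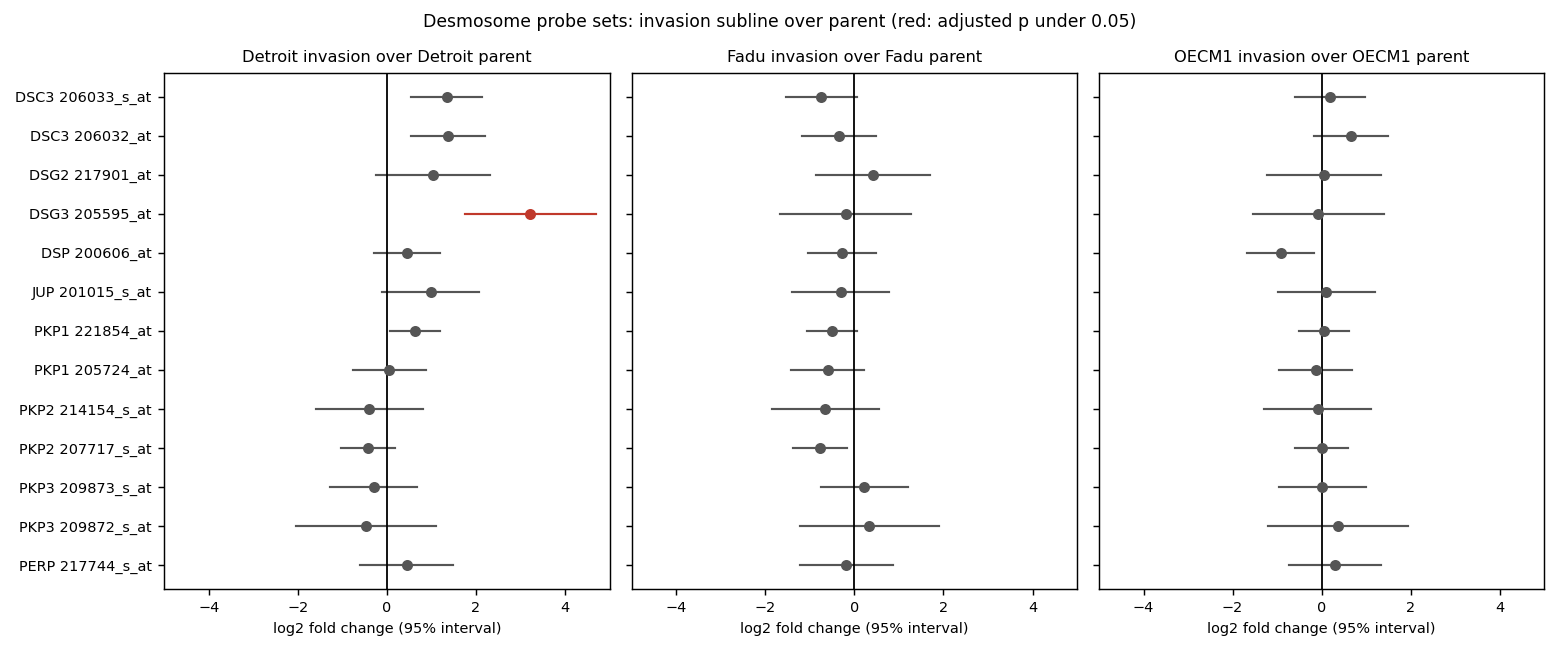
Log2 fold change (horizontal axis) of each tested desmosome probe set, invasion subline over parent, in Detroit, Fadu and OECM1, with the 95% interval from the limma fit as a line. Only DSG3 in Detroit, at 3.22, was called and is red; most intervals in Fadu and OECM1 include 0.

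Set against Fadu parent cells, which its arrays resembled more, the Detroit-labelled invasion subline had no desmosome probe set called, and limma called 0 of all probe sets (0%), with 558 (3.69%) at an unadjusted p under 0.05. Of the 13 desmosome probe sets 3 were among those 558. DSP differed by -1.04 (95% interval -1.79 to -0.29), PKP2 (207717_s_at) by -0.96 (-1.57 to -0.36) and PKP1 (221854_at) by 0.59 (0.03 to 1.15), all with an adjusted p of 1.00. The other probe sets of PKP2 (214154_s_at) and PKP1 (205724_at) differed by -0.13 and -0.15, with overlapping arrays. DSG3 differed by 1.01 (-0.46 to 2.47). The DSG3 difference was 2.36 without replicate 1 of the subline and -0.35 without its replicate 2, so its sign rested on 1 array.

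In Fadu, no desmosome probe set was called between the invasion subline and its parent, where limma called 0.0198% of all probe sets. The largest differences were lower values in the subline, by -0.78 for PKP2 (207717_s_at, 95% interval -1.38 to -0.17, adjusted p = 1.00) and by -0.75 for DSC3 (206033_s_at, -1.54 to 0.05). Only the PKP2 probe set had an unadjusted p under 0.05, as did 265 (1.75%) of all probe sets. The fold change was negative for 10 of the 13 desmosome probe sets, with a median of -0.31 against -0.01 over all. The subline arrays lay wholly below the parent arrays for 6 of them and wholly above for 2, together 61.5%, against 32.6% of all probe sets. For DSG3, the interval of -1.66 to 1.28 leaves room for a change of more than 2-fold either way.

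In OECM1, no desmosome probe set was called between the invasion subline and its parent, where limma called 0.00661% of all probe sets. DSP had the largest difference, with a mean of 8.76 ± 0.164 in the subline and 9.68 ± 0.411 in the parent (SD, n = 2 each), or -0.92 (95% interval -1.67 to -0.17, limma adjusted p = 1.00). It was the only desmosome probe set with an unadjusted p under 0.05, as 498 (3.29%) of all probe sets had. The fold change was positive for 8 of the 13 and the median was 0.06, against 0.00 over all. Arrays did not overlap for 3 of the 13, or 23.1%, against 24.7% of all probe sets.

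Whether the invasion effect differed between the 3 lines was asked with an F test. It called no desmosome probe set, and 0.602% of all probe sets. The smallest p among them belonged to DSG3 and DSC3 (206033_s_at), each with an adjusted p of 0.268. The DSG3 effect was larger in Detroit than in Fadu by 3.41 (95% interval 1.33 to 5.48, adjusted p = 0.250) and than in OECM1 by 3.30 (1.23 to 5.38, adjusted p = 0.188), and neither difference passed, where 0.529% and 0.708% of all probe sets did. The difference of effects between OECM1 and Fadu passed for 0% of all probe sets and for no desmosome probe set. Without replicate 1 of the Detroit-labelled subline, the F test called DSG3 (adjusted p = 0.00374).

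Between the parents, which were compared to see how the lines differed before selection, 3 desmosome probe sets were called lower in Detroit than in OECM1 cells and none higher. DSG3 averaged 4.56 ± 0.134 in Detroit parent cells and 7.81 ± 0.285 in OECM1 parent cells (SD, n = 2 each), a log2 fold change of -3.24, or 9.48-fold (SE 0.666, limma adjusted p = 0.0250). DSP averaged 7.97 ± 0.340 in Detroit and 9.68 ± 0.411 in OECM1 parent cells, a change of -1.71, or 3.28-fold (SE 0.341, limma adjusted p = 0.0211). DSC3 (206033_s_at) averaged 5.41 ± 0.750 in Detroit and 6.99 ± 0.285 in OECM1 parent cells, a change of -1.58, or 2.99-fold (SE 0.361, limma adjusted p = 0.0400). The second DSC3 probe set changed by -1.50 and just missed (adjusted p = 0.0571). The 3 called of 13 stand beside 3.29% called among all probe sets, and 1.85% called lower.

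Of the other desmosome genes, DSG2 differed between Detroit and OECM1 parent cells by -1.59 (95% interval -2.87 to -0.30), about as much as DSC3, without passing (adjusted p = 0.193). PKP3, PKP2, JUP, PKP1 and PERP all had positive log2 fold changes, between 0.17 and 1.24, none of which passed. The arrays did not overlap for 9 of the 13, or 69.2%, against 43.2% of all probe sets. Over the 23 alternatives, DSP was called in 19, DSG3 in 18 and DSC3 (206033_s_at) in only 9, with an adjusted p of up to 0.239. Of the 3 calls 1 was left when only these 4 arrays were fitted, 1 without replicate 1 or replicate 2 of the Detroit parent, and 0 without replicate 1 of the OECM1 parent or with the replicate number as a block. Without both Detroit-labelled invasion arrays the same 3 and the second DSC3 probe set were called.

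**Figure D3:**
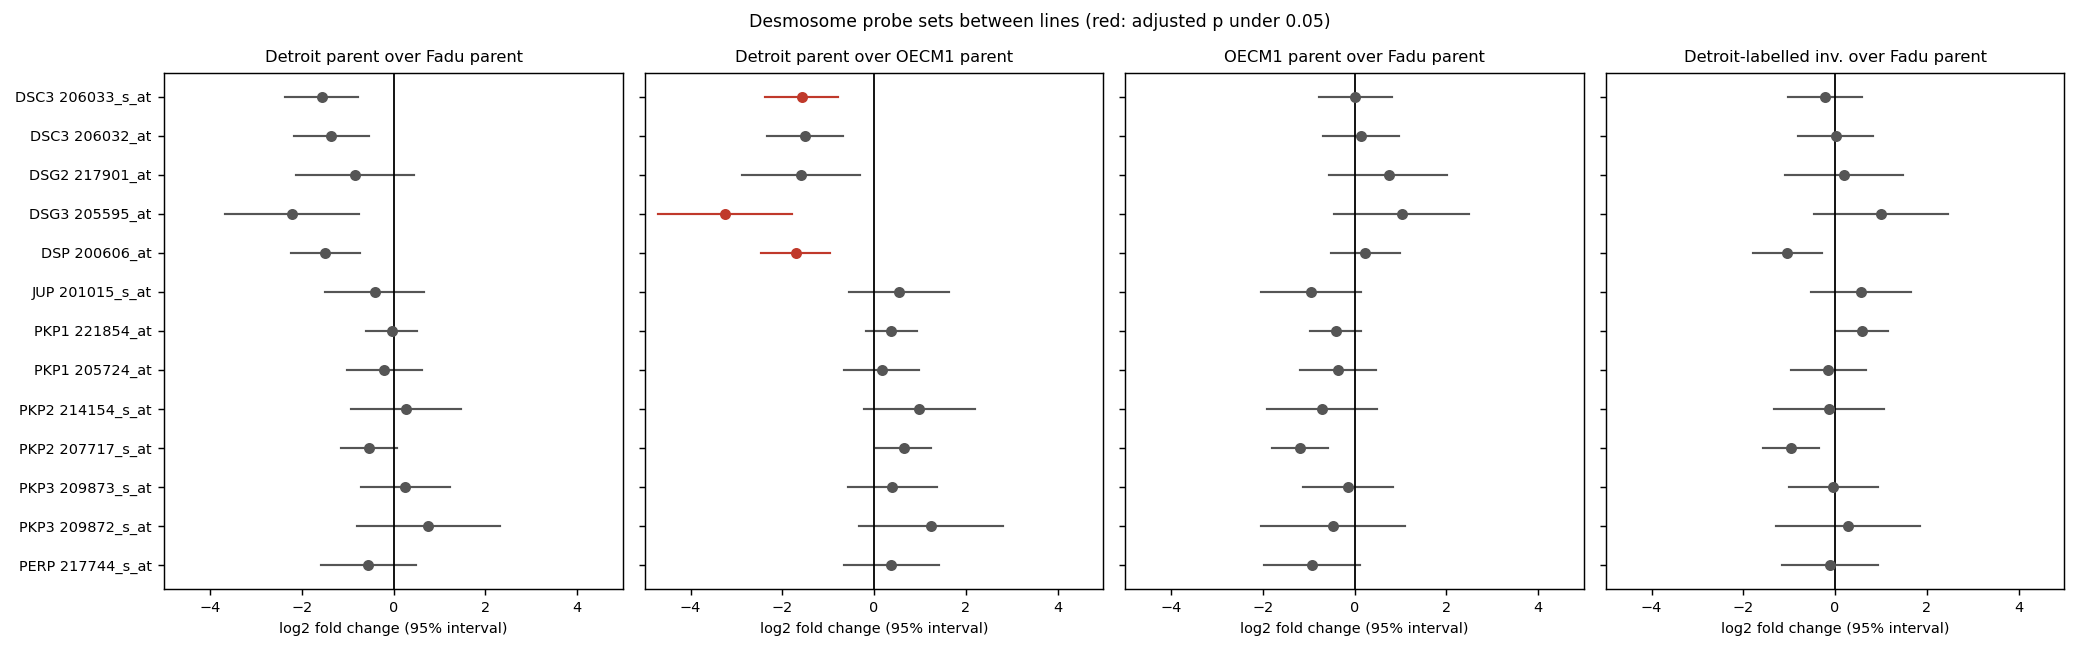
Log2 fold change (horizontal axis, with 95% interval) of each tested desmosome probe set in the 3 comparisons of parents and for the Detroit-labelled invasion subline over the Fadu parent. Red marks an adjusted p under 0.05: DSG3 at -3.24, DSP at -1.71 and DSC3 at -1.58 for Detroit over OECM1 parent cells.

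Set against Fadu parent cells, Detroit parent cells had the same genes at the low end, and none was called, while 2.29% of all probe sets were. DSP differed by -1.49 (95% interval -2.24 to -0.74, adjusted p = 0.0502), DSC3 (206033_s_at) by -1.57 (-2.36 to -0.77, adjusted p = 0.0511) and DSG3 by -2.21 (-3.68 to -0.75, adjusted p = 0.136). With 1 probe set per gene, DSP (adjusted p = 0.0479) and DSC3 (adjusted p = 0.0464) were called. The count was 3 without replicate 1 or without replicate 2 of the Detroit-labelled subline, 2 without either array of the OECM1 parent, and 1 without replicate 1 of the Detroit parent. Both comparisons share the Detroit parent arrays, so the likeness of their lists is not independent. The Detroit parent arrays lay wholly below those of the Fadu parent for 7 of the 13, or 53.8%, and wholly above for 0. Over all probe sets, 24.2% lay wholly below and 26.2% wholly above, together 50.4%. Without both Detroit-labelled invasion arrays, 3 were called, namely DSP, DSG3 and DSC3.

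OECM1 and Fadu parent cells had no desmosome probe set called between them, where 2.43% of all probe sets were. PKP2 (207717_s_at) came nearest, with 4.58 and 4.90 in OECM1, against 5.70 and 6.15 in Fadu parent cells (log2 fold change -1.18, 95% interval -1.79 to -0.58, limma adjusted p = 0.0519). Without either replicate of the Detroit-labelled subline, it was called (PKP2 adjusted p = 0.0439). The other PKP2 probe set (214154_s_at) differed by -0.72 (95% interval -1.92 to 0.48, limma adjusted p = 0.662), with overlapping arrays. DSG3, DSC3 and DSP differed by 1.03, 0.01 and 0.23, with intervals of -0.44 to 2.50, -0.78 to 0.81 and -0.52 to 0.98.

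The genes around the desmosome gave a count for each list and comparison, and 46 of the 57 genes listed had a probe set of their own on the array. Of the 4 other desmosomal or plaque-associated genes tested (PKP4, PPL, EVPL, PNN) none was called in any comparison, and DSG1 and DSC1, the cadherins of the upper epidermal layers, were below the dim limit on every array. For the Detroit-labelled subline against the Detroit parent, 3.02% of all probe sets were called. Of the 12 intermediate filament genes tested, 1 rose and none fell there. This was KRT14, the basal keratin of squamous cells, which averaged 10.52 in the subline and 4.05 in the parent (log2 fold change 6.47, adjusted p = 3.32e-04). KRT14 and KLK5 in Detroit parent cells lay below the dim limit, where RMA compresses values, so their fold changes may be understated. Of the 11 regulators and proteases tested, 2 rose and none fell there, KLK5, a protease that cleaves desmosomal cadherins in the upper epidermis (4.80, adjusted p = 1.85e-04), and TGM1, the transglutaminase that crosslinks the cornified envelope (1.95, adjusted p = 0.0223). None of the 9 adherens junction or 5 hemidesmosome genes was called there. No list had a called gene in Fadu or OECM1 sublines against their parents, where 0.0198% and 0.00661% of all probe sets were called. The largest differences in the lists were -2.44 for KLK6 and -1.86 for KLK5 in Fadu, and 2.81 for VIM and -2.02 for KRT5 in OECM1. The median log2 fold change in Detroit was 0.20 for the other desmosomal genes, 0.45 for intermediate filaments, 0.31 for adherens junctions, -0.65 for hemidesmosomes and 0.43 for regulators, against -0.01 over all probe sets. The 5 list medians lay between -0.14 and 0.44 in Fadu and between -0.16 and 0.27 in OECM1.

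Between OECM1 and Fadu parent cells, where no desmosome probe set was called, these lists held calls both ways, beside the 2.43% called among all probe sets. Of the 12 intermediate filament genes, KRT14 (-4.45), KRT19 (-3.35) and KRT7 (-1.82) fell and VIM (2.27), the mesenchymal filament protein, rose. Of the regulators, KLK5 (-2.78), KLK6 (-3.84) and ST14 (-1.94) fell and SNAI2 (1.79), a repressor of epithelial genes, rose. ITGA6, the alpha chain of the hemidesmosome integrin, rose by 2.29. The OECM1 parent means of KRT14 (4.42), KLK5 (4.18) and KLK6 (4.28) lay below the dim limit, so these differences may be understated too. For Detroit against OECM1 parent cells, 3.29% of all probe sets were called. There KRT19 (4.16), KRT7 (2.42) and ST14 (1.83) rose and VIM (-2.43) and SNAI2 (-3.19) fell. Thus DSG3, DSC3, DSP, VIM and SNAI2 were all lower in Detroit than in OECM1 parent cells. For Detroit against Fadu parent cells, where 2.29% of all probe sets were called, KRT14 (-4.81) and KLK5 (-2.60) fell. None of the 9 adherens junction genes was called in these 3 comparisons.

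The desmosome genes did not vary as one group over the 12 arrays. The correlations below describe arrays that share lines and duplicates and carry no test. DSC3, DSG2 and DSG3 correlated with each other at r = 0.71 to 0.77, and PKP2 with PKP3 at r = 0.71. DSG3 correlated with the PKP2 probe set 214154_s_at at r = -0.70 and with 207717_s_at at r = -0.42, and with both PKP3 probe sets at r = -0.69 and -0.72. DSG2 correlated with these PKP2 probe sets at r = -0.72 and -0.47. The 2 probe sets of a gene followed each other closely for PKP3 (r = 0.92), and less so for PKP2 (r = 0.41) and PKP1 (r = 0.22). JUP correlated with none of DSC3, DSG2 and DSG3, at r = -0.20 to 0.01. The genes most like DSG3 among 8983 others were KAZN (r = 0.956), HMBOX1 (r = 0.955) and MGA (r = 0.940). For DSC3 they were POMGNT1 (r = 0.905), PTPRF (r = 0.885) and DPAGT1 (r = 0.880), and for DSP they were ORC6 (r = 0.903), VPS4A (r = 0.896) and PLAGL1 (r = 0.881).

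Part of the plakophilin probe sets ran opposite to DSG3 between the duplicates of the Detroit-labelled subline. Replicate 2 of the Detroit-labelled subline lay above replicate 1 by 2.70 for DSG3 and below it by -1.78 for PKP2 (214154_s_at), -1.26 for PKP3 (209873_s_at) and -2.46 for PKP3 (209872_s_at). The other plakophilin probe sets differed by -0.43 for PKP1 (205724_at), -0.03 for PKP1 (221854_at) and 0.16 for PKP2 (207717_s_at). The arrays also differed in the ratio of the 3′ to the 5′ control probe set of ACTB, a measure of RNA quality or labelling, which was 0.80 in replicate 2 and -0.28 in replicate 1 on the log2 scale. In Detroit parent cells the ratios were nearly equal, at -0.03 and -0.10, so which array counts as the higher says little there. In each of the 6 groups, the array with the higher ratio had the lower value of PKP1 (205724_at), PKP2 (214154_s_at) and PKP3 (209872_s_at). That is 3 of the 13 desmosome probe sets, against 9.25% of all probe sets, and PKP3 (209873_s_at) did so in 5 of 6 groups. Counted in at least 5 groups, 4 of the 13 were lower on that array, as 25.3% of all probe sets were. DSG3, DSG2 and PERP, 3 of the 13, had the higher value on that array in 5 of 6 groups, as 17.7% of all probe sets did in at least 5. With the ratio as a covariate, DSG3 stayed higher in the Detroit-labelled subline than in the parent, by 2.79 (adjusted p = 0.0106).

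**Figure D4:**
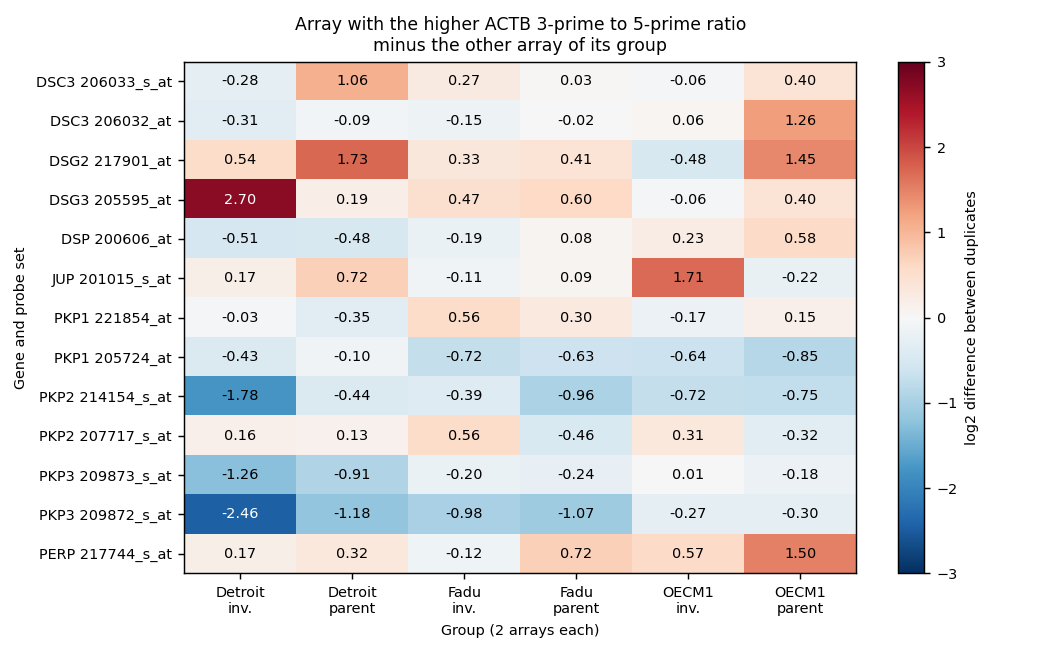
Log2 difference between the 2 arrays of each group (columns) for each tested desmosome probe set (rows), as the array with the higher ACTB 3′ to 5′ ratio minus the other. Blue is negative and red positive: PKP1 (205724_at), PKP2 (214154_s_at) and PKP3 (209872_s_at) are negative in all 6 groups, and DSG3 reaches 2.70 in the Detroit-labelled invasion subline. The Detroit parent ratios differed by only 0.07, so the order in that column says little.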

How the data were processed

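The authors deposited log2 expression values for 22283 probe sets on 12 Affymetrix arrays, for which the submitters' processing notes name RMA and Partek version 7. RMA subtracts background, brings arrays to one distribution and summarises probes. It compresses low values, and the table holds no detection calls. The genome build and annotation version behind it are not given in the sources used here. There is no read depth on arrays, and 2 arrays per group limit the precision.

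Gene symbols came from the platform annotation, in which 19065 of those that are not controls had 1 symbol, 1043 several and 2107 none listed. The 68 controls were left out of the fit, and 0 columns of values were unused. A mean per group was fitted to all 12 arrays (limma 3.58.1, R 4.3.3; moderated variances with a trend on intensity) over the 15123 probe sets that passed the filter. P-values are two-sided and adjusted by the Benjamini-Hochberg method with a threshold of 0.05. The fit was tested on simulated data. Duplicates held at most 3 identical values, so none was counted as a repeat deposit.

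The members and the lists were chosen with earlier results of these data known. Every desmosome probe set is accounted for, and the brightest of each gene carries the values by array. Members of the other lists are named where called. The 3 genes most like a member are those with the highest Pearson correlation over the 12 arrays among genes represented by their brightest probe set. Promoter windows came from RefSeq tables (GRCh38.p14), where 8 of the 10 genes matched and PKP2 and PKP3 did not. Replicate numbers were not used to pair the samples, after the check given in the closing section, which cannot exclude pairing. Alternatives covered the filter, 1 probe set per gene, the trend, the arrays fitted, array weights, the ACTB ratio, centring, blocks and leaving out each array.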

Additional observations from a re-analysis of the deposited data

Results flagged for a closer look

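In 5 cases, every invasion array of one line lay above its parent arrays and every invasion array of another lay below, so that the effects pointed opposite ways. These were 4 of 13 probe sets for Detroit and Fadu, 1 of 13 for OECM1 and Fadu and 0 of 13 for Detroit and OECM1, against 5.22%, 4.08% and 5.22% of all probe sets. All 5 involved the Fadu invasion subline, and no difference between lines passed after adjustment in limma. The DSC3 effect (206033_s_at) was 1.35 in Detroit and -0.75 in Fadu, a difference of 2.09 (95% interval 0.97 to 3.22, adjusted p = 0.150). The other DSC3 probe set (206032_at) differed by 1.71 between Detroit and Fadu (adjusted p = 0.331) and by 1.00 between OECM1 and Fadu (adjusted p = 1.00).

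JUP (201015_s_at) differed by 1.29 between Detroit and Fadu (adjusted p = 0.733), with effects of 0.98 and -0.31. PKP1 (221854_at) differed by 1.13 (adjusted p = 0.348), with effects of 0.63 and -0.50, and its Fadu subline arrays read 4.12 and 4.68, near the dim limit. The other PKP1 probe set (205724_at) had effects of 0.05 and -0.60, and its subline and parent arrays overlapped in both lines. The Detroit values rest on the arrays that resembled Fadu parent cells, and their part in these differences was not tested.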

How the results depend on the processing

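Counts of called desmosome probe sets kept their value in the Fadu and OECM1 invasion comparisons, 0 under all 23 alternatives each. For Detroit, 1 became 0 with only the arrays compared and 0 with the replicate block, and it was 0 to 2 when one array was left out. The other ranges on leaving out an array were 0 to 1 for the Detroit-labelled subline against the Fadu parent, 0 to 3 for Detroit against Fadu parent, 0 to 1 for OECM1 against Fadu parent, 0 to 4 for Detroit against OECM1 parent and 0 to 1 for the F test. A group left with 1 array was taken to vary like the others. For Detroit against Fadu parent, 0 became 2 with 1 probe set per gene, with a filter at the 60th percentile, without the intensity trend, with only the arrays compared or with the ACTB ratio. It became 4 with array weights. For OECM1 against Fadu parent, 0 became 1 with the ACTB ratio. For Detroit against OECM1 parent, 3 became 1 with only the arrays compared, 0 with the replicate block, and 2, with DSC3 (206033_s_at) lost, without the filter, with array weights and with the ACTB ratio. Over all probe sets, the calls ranged from 44 to 1366 for Detroit (457 as reported), 84 to 756 for Detroit against Fadu parent (347), 71 to 654 for OECM1 against Fadu parent (367), 214 to 821 for Detroit against OECM1 parent (497), 0 to 306 for the Detroit-labelled subline against the Fadu parent (0), and 30 to 328 for the F test (91). Fadu ranged from 0 to 5 (3) and OECM1 from 0 to 6 (1). No called value changed its sign. The highest counts for Detroit, for the Detroit-labelled subline against the Fadu parent and for the F test came without replicate 1 of that subline, and the lowest for the Detroit and OECM1 parents against the Fadu parent came without replicate 1 of the Fadu parent. The cause of these changes was not tested. Same-numbered arrays of subline and parent deviated from their group means at r = -0.17 in Detroit, -0.41 in Fadu and -0.40 in OECM1, so the numbers were not used as pairs. In each line the higher ACTB ratio was in replicate 2 of the subline and replicate 1 of the parent, so this check cannot exclude pairing. After seeing the data, 2 alternatives were added. Crossed numbers called 1 in Detroit, 1 for Detroit against Fadu parent, 4 for Detroit against OECM1 parent and 0 in the rest. Without both Detroit-labelled invasion arrays, 3 were called for Detroit against Fadu parent, 1 for OECM1 against Fadu parent and 4 for Detroit against OECM1 parent. The F test was not run with only the arrays compared, since it needs all groups. Values near or below the dim limit may understate fold changes. These were PKP1 and PKP2 on some arrays, DSG3, KRT14 and KLK5 in Detroit parent cells, and KRT14, KLK5 and KLK6 in OECM1 parent cells. The 2 arrays a group limit every call.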
